A study of Mus musculus with 12 samples.

Results

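The genes of prostaglandin E2 (PGE2) synthesis, reception and breakdown were examined in RNA-seq libraries of Ocy454 cells, a mouse osteocyte line. The set was given by name as 10 genes out of the 37583 gene IDs counted in every library, a list that uses no measured value, although it was drawn up with earlier results of these data known. It holds the cyclooxygenases Ptgs1 and Ptgs2, the terminal synthases Ptges, Ptges2 and Ptges3, the receptors Ptger1, Ptger2, Ptger3 and Ptger4, and the PGE2-degrading enzyme Hpgd. All 10 were found in the annotation, and 8 passed the filter on low counts, which asked that no more than 1 of the 12 libraries had a count of 0. Ptger2 and Ptger3 did not pass.

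The series holds 12 libraries in 4 groups of 3: control cells and HDAC4/HDAC5 double-knockout (DKO) cells, each under static conditions or after 3 h of fluid flow shear stress (FFSS). All groups were cultured for 14 days. Control cells are labelled original cells, and DKO cells are labelled as deleted for HDAC4 and HDAC5, class IIa histone deacetylases, which act in the nucleus as repressors of transcription. Per the methods of the study, the cells came from 1 single-cell sub-clone, gene deletion used a Cas9-expressing derivative with lentiviral guide RNAs, control cells received a lentivirus without a guide, and FFSS came from orbital rotation of the dishes. All groups share the background of the Ocy454 line, which was derived from mouse long bone and carries a temperature-sensitive SV40 T antigen and a GFP transgene driven by a Dmp1 promoter. The labels name 1 line for each genotype, so effects of the deletions and of the line itself cannot be told apart, and whether the DKO cells were a clone is not given in the sources used here. The labels do not say whether replicates were separate cultures, so p-values measure the spread between these libraries, which may be technical.

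PGE2 is made from arachidonic acid that phospholipases free from membranes. Cyclooxygenases convert it to PGH2, PGE synthases convert PGH2 to PGE2, and the secreted PGE2 acts on the G protein-coupled receptors EP1 to EP4. Release of PGE2 is a well-known early response of osteocytes to fluid flow, COX-2 (encoded by Ptgs2) is the inducible cyclooxygenase of that response, and EP2 and EP4 raise cyclic AMP in bone cells. 15-hydroxyprostaglandin dehydrogenase, encoded by Hpgd, oxidises PGE2 and ends its action. RNA counts measure neither enzyme activity nor PGE2 itself.

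Between 17.6 and 19.2 M reads per library were assigned to genes. By these totals 3 counts, the floor used here, corresponded to 0.157 to 0.171 CPM, the count scaled to library size. The CPM values of genes use library sizes after TMM scaling (16.8 to 20.5 M), on which 3 counts were 0.146 CPM in control FFSS replicate 2. 1 library stood apart: in control FFSS replicate 1, 435 genes lay more than 1 log2 unit from the control static mean, against 1715 and 1772 in replicates 2 and 3. Calls of the prostaglandin E2 genes that changed without it are given with and without it. For the other pathway genes named below, results without it are given only as counts of calls. Hdac4 averaged 26.1 CPM in control static and 14.5 CPM in DKO static cells, and Hdac5 133 and 84.5 CPM. With FFSS the Hdac5 means were 81.2 and 92.8 CPM, and counts over a whole gene do not check an edit within it. Of 6 osteocyte markers, Fgf23 was at 0 or 1 count in every library, and Mepe had at most 4 counts in any control library. The 6 markers summed to 62.5 to 184 CPM in control and 3600 to 4030 CPM in DKO libraries. Sost, Phex and Dmp1 made up most of that sum except in control FFSS replicates 2 and 3, where Pdpn did (1050 and 817 counts). Pdpn was lower in DKO cells (28.4 CPM in control static and 5.11 CPM in DKO static cells). The 5 osteoblast markers summed to 17200 to 20700 CPM in control static, 6000 to 16900 CPM in control FFSS and 50200 to 57900 CPM in DKO libraries. Col1a1 made up most of that sum, and Alpl (1630 and 1820 CPM) and Runx2 (197 and 238 CPM) were closer between static control and DKO cells. In control cells Sp7 averaged 538 CPM static and 178 CPM with FFSS. The 4 chondrocyte markers summed to 50.1 to 102 CPM in control and 2000 to 2950 CPM in DKO libraries, of which Col2a1 and Col10a1 made up most in DKO cells and Acan averaged 5.96 and 4.97 CPM in static control and DKO cells. The 4 macrophage markers summed to 15.6 to 28.5 CPM in control and 2.8 to 3.45 CPM in DKO libraries. Cd68 made up most of that sum (25.5 and 2.32 CPM in static cells), Csf1r was at 0.316 and 0.717 CPM, and Ptprc and Emr1 had 0 to 3 counts in every library. The part of these differences in the results below was not tested. In bulk RNA, fewer cells of a type and less RNA per cell cannot be told apart.

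Static control cells expressed most of the route from arachidonic acid to 2 of the 4 receptors, and had almost no Hpgd RNA. On the scale of CPM per kb of exon, which allows levels of different genes to be compared, Ptges3 was highest at 51.1 ± 2.01, followed by Ptgs2 at 23.0 ± 2.89, Ptges2 at 11.7 ± 0.292 and Ptger1 at 8.84 ± 0.622 (SD, n = 3). Ptger4 was lower at 1.99 ± 0.234, and Ptgs1 (0.627 ± 0.132), Ptges (0.307 ± 0.0697) and Hpgd (0.102 ± 0.0472) were each below 1 CPM per kb. No neighbours in this order overlapped in static control cells. Under FFSS the order of the control means was the same, with Ptges (0.0869 to 0.151) and Hpgd (0.0288 to 0.149) overlapping.

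In static DKO cells Hpgd was next after Ptgs2 at 11.9 ± 0.528 CPM per kb, overlapping Ptges2 at 11.7 ± 0.0851. Ptgs1 reached 2.34 ± 0.364 CPM per kb there and overlapped Ptger4 at 2.69 ± 0.316. With the longest transcript as the length in place of all exons, Ptges2 stood above Hpgd in static DKO cells, at 12.2 and 11.9. The last place was held by Ptges, at 0.14 ± 0.0503 CPM per kb.

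**Figure D1:**
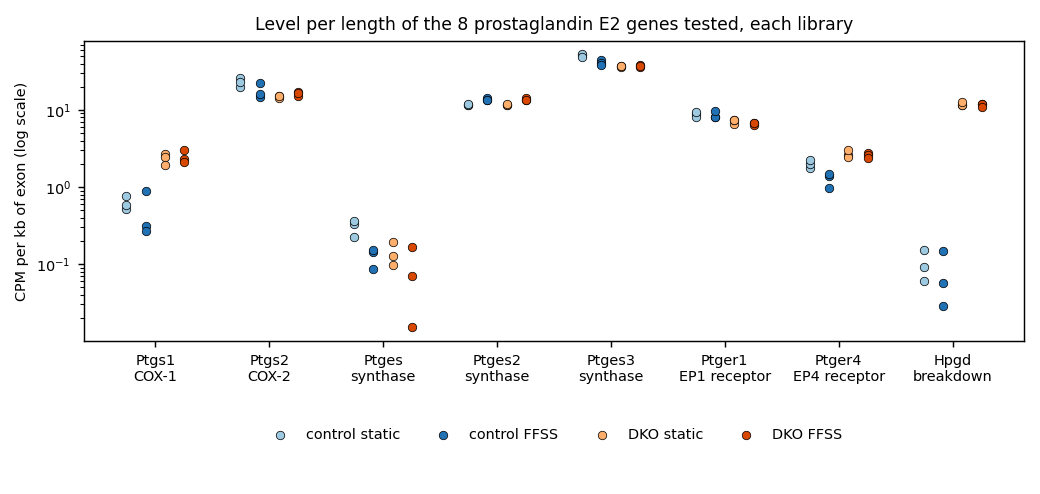
Level of each of the 8 genes that passed the filter, as CPM per kb of exon on a log scale; every point is 1 library and colours mark the 4 groups. Hpgd moved from the lowest place in control cells (0.102 and 0.0784 on average) to near that of Ptges2 in DKO cells (11.9 and 11.5, beside 11.7 and 13.7), while Ptges3 and Ptgs2 kept the first 2 places in all groups.

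The 5 comparisons asked what FFSS changed in each genotype, whether those changes differed (the interaction, as the response in DKO cells less that in control cells), and how DKO cells differed from control cells in each condition. In static cells DKO and control differed in 7 of the 8 genes at an adjusted p under 0.05 (edgeR), where 54.2% of all 14904 genes tested passed. Of these 7, 3 were higher and 4 lower in DKO cells (backgrounds 27.0 and 27.2%). FFSS changed 5 of 8 in control cells, where 35.8% of all genes passed, with 1 higher and 4 lower (backgrounds 17.7 and 18.1%). In DKO cells it changed 0 of 8 (background 0.872%). There limma-voom called 0 (background 0.711%) and DESeq2 0 (background 4.0%), where DESeq2 gave Ptgs1 and Ptges no adjusted p. The interaction passed for 0 of 8 (background 3.97%), for 1 with DESeq2 (background 9.59%) and for 0 with limma-voom (background 4.52%). DESeq2 gave Ptges no adjusted p in the interaction. Between DKO and control cells under FFSS 4 of 8 passed (background 56.6%), with 3 higher and 1 lower (backgrounds 27.0 and 29.6%).

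With more than a 2-fold change required as well, the counts were 1 in FFSS in control cells, 0 in FFSS in DKO cells, 0 in the interaction, 3 in static and 3 in FFSS cells between the genotypes (backgrounds 5.93, 0.0872, 0.651, 15.3 and 17.2%). The median log2 fold change of the 8 was −0.37 for FFSS in control cells and −0.01 for FFSS in DKO cells, beside 0.007 and −0.009 over all genes tested. The median interaction was 0.38 beside −0.017. Between the genotypes it was −0.15 in static and −0.06 in FFSS cells, beside 0.01 and −0.051. The comparisons share control libraries, so they are not independent of each other.

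**Figure D2:**
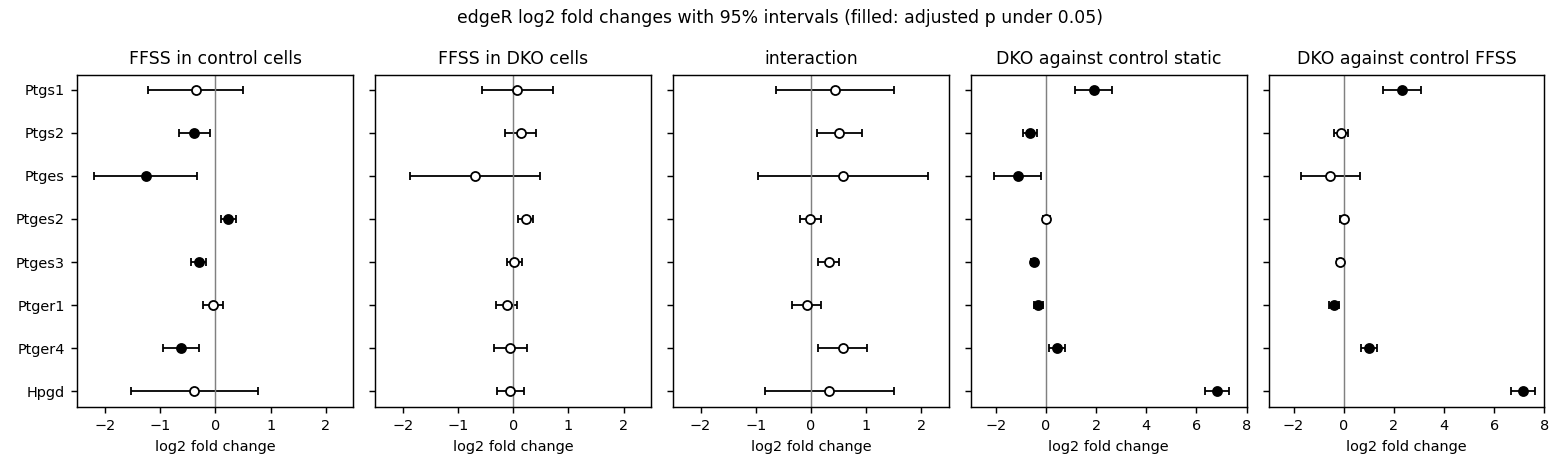
Log2 fold changes of the 8 genes with 95% intervals in the 5 comparisons (edgeR, n = 3 per group); filled points had an adjusted p under 0.05 and the axes of the last pair of panels are wider. Hpgd lies at 6.81 and 7.14 and Ptgs1 at 1.90 and 2.33 between the genotypes, and all points of FFSS in DKO cells are open.

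Hpgd, on mm9 chr8:58773349-58799843 (plus strand, 7 exon blocks), showed the largest difference of the set. Its counts in static control cells were 5, 3 and 2, and in control FFSS cells 5, 2 and 1. In static DKO cells they were 366, 359 and 386, and in DKO FFSS cells 366, 342 and 333. Every DKO library was far above every control library, and several control libraries were at or under the floor of 3 counts.

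Summed over 3 libraries, Hpgd had 1111 counts in static DKO and 10 in static control cells, a ratio of CPM of 117 (95% exact interval 63.2 to 244, counting error only). Under FFSS the sums were 1041 and 8, a ratio of 148 (75.0 to 344), and 5 of those 8 counts were in control FFSS replicate 1. The fitted log2 fold changes were 6.81 ± 0.219 (SE, adjusted p = 4.04e-11) and 7.14 ± 0.227 (adjusted p = 3.14e-11) in static and FFSS cells, and the latter was 7.94 (adjusted p = 4.88e-21) without control FFSS replicate 1. FFSS gave a log2 fold change of −0.05 in DKO cells (95% interval −0.30 to 0.20). In control cells, at these low counts, the value was −0.38 (−1.53 to 0.77), and −1.18 (adjusted p = 0.23) without control FFSS replicate 1. The DKO means were 20.4 ± 0.907 CPM static and 19.7 ± 0.96 CPM with FFSS.

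The promoter of Hpgd, the gene with the largest difference, and those of the cyclooxygenase pair, which differed in opposite directions, were read from a RefSeq table on GRCm38.p6. That build differs from the mm9 of the counts, and the table held 9 of the 10 genes, without Ptger1. Each window runs from 250 bases before to 50 after the annotated start, 5′ to 3′ on the strand of the gene, and is shown to set the windows beside the expression values. Capitals mark the letters of searched motifs. In Hpgd they are TATAAA, the letters of a TATA box, which here lie after the annotated start. In Ptgs2 they are those of a cyclic AMP response element (CRE) half-site that overlaps an E-box.
Hpgd chr8:56294302-56294601, plus strand: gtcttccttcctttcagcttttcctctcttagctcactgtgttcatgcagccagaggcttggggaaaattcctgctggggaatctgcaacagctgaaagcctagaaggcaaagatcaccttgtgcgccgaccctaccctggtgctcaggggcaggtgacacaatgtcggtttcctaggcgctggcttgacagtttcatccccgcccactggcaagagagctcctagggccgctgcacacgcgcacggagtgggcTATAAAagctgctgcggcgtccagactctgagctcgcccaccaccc
Ptgs2 chr1:150099781-150100080, plus strand: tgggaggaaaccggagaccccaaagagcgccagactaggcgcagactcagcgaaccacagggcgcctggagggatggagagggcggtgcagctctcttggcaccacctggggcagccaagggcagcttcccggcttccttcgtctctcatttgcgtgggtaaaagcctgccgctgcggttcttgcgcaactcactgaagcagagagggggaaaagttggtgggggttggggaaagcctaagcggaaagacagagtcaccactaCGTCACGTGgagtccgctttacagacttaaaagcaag
Ptgs1 chr2:36230176-36230475, plus strand: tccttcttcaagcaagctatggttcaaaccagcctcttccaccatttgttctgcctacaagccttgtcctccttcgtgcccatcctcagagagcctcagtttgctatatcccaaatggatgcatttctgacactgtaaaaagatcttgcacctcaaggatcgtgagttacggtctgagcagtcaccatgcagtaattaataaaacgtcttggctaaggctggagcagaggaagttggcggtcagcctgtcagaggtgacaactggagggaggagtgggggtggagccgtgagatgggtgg

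The motifs searched on both strands were the CRE half-site TGACG, the AP-1 site TGANTCA, the TATA box TATAAA, the E-box CACGTG and the MEF2 site, since MEF2 is a known partner of class IIa HDACs. In the Hpgd window TATAAA began at position 5 after the annotated start. In the Ptgs2 window the CRE half-site, read on the opposite strand, began at position 14 and the E-box at position 17. Ptges3 had a CRE half-site at position 12 and Ptges2 an E-box at position −77. Of 32851 promoters of the same length, 20.8% held TGACG, 7.81% TGANTCA, 13.6% TATAAA, 7.15% CACGTG and 3.19% a MEF2 site. None of these letters occurred in the windows of Ptgs1, Ptges, Ptger2, Ptger3 or Ptger4, which says nothing of the factors themselves.

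Ptgs1, which encodes the constitutive cyclooxygenase COX-1 (mm9 chr2:36085946-36107792, plus strand), was higher in DKO cells. It was at 2.01, 2.29 and 3.00 CPM in static control cells and at 10.3, 9.38 and 7.55 CPM in static DKO cells. The groups did not overlap, and the log2 fold change was 1.90 ± 0.334 (SE, adjusted p = 0.000435), a 3.73-fold difference. With FFSS DKO libraries were at 8.96, 11.8 and 8.11 CPM, above all control FFSS libraries, and the log2 fold change was 2.33 ± 0.343 (adjusted p = 0.000104).

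Control cells under FFSS disagreed among themselves in Ptgs1. Replicates 2 and 3 were at 1.22 and 1.04 CPM, below all static libraries, and replicate 1 at 3.49 CPM was above all of them. With all 3 libraries the FFSS difference was −0.35 on the log2 scale (adjusted p = 0.516, 95% interval −1.22 to 0.51). Without replicate 1 Ptgs1 fell by 1.10 (adjusted p = 0.00188), and the interaction was 1.18 (adjusted p = 0.00445) in place of 0.43 (adjusted p = 0.62). The difference between genotypes under FFSS was then 3.08 (adjusted p = 2.01e-12). In DKO cells the FFSS difference of Ptgs1 was 0.08 (−0.56 to 0.71). With the share of reads outside genes as a covariate the FFSS differences of Ptgs1 were 0.84 in control (adjusted p = 0.0711) and 0.55 in DKO cells (adjusted p = 0.0352).

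Ptgs2, on mm9 chr1:151947254-151955140 (plus strand, 10 exon blocks), was the more abundant cyclooxygenase in every library and was not higher after 3 h of FFSS in control cells. Static control libraries were at 107, 82.8 and 97.0 CPM, and control FFSS libraries at 60.6, 91.5 and 67.6 CPM. FFSS replicate 2 lay inside the static range and the others below it. The log2 fold change was −0.38 ± 0.13 (SE, adjusted p = 0.0378), a 1.30-fold lower level. This call was lost in 14 of 21 alternatives, with adjusted p over all alternatives from 0.00114 to 0.194. Among these were the fits without control static replicate 1 (−0.29) or 3 (−0.37) and without control FFSS replicate 1 (−0.26) or 3 (−0.33), and those without any one of the 3 static DKO libraries or DKO FFSS replicate 1 or 3 (−0.38 each). With the share of reads outside genes as a covariate the call was also lost, at −0.64 (adjusted p = 0.0889). Without control FFSS replicate 2 the log2 fold change was −0.57 (adjusted p = 0.00114).

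The DKO libraries spread less in Ptgs2. They were at 63.0, 59.6 and 62.2 CPM static and 70.6, 63.9 and 68.4 CPM with FFSS, all below the static control libraries. FFSS libraries were just above static ones without overlap, but the log2 fold change of 0.14 had an interval of −0.15 to 0.42 and an adjusted p of 0.754. Static DKO cells were 1.55-fold lower than static control cells (log2 fold change −0.63 ± 0.131, adjusted p = 0.00125). With FFSS the genotypes overlapped, at −0.12 (−0.40 to 0.17, adjusted p = 0.482). The interaction was 0.52 (0.12 to 0.92, adjusted p = 0.127), and 0.71 (adjusted p = 0.0135) without control FFSS replicate 2.

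The balance between the cyclooxygenases moved with genotype. On the per-length scale the Ptgs2 to Ptgs1 ratio was 49.7, 33.9 and 30.3 in static control libraries and 16.3, 70.2 and 61.0 in control FFSS libraries. In static DKO libraries it was 5.71, 5.95 and 7.71, and in DKO FFSS libraries 7.39, 5.09 and 7.90. All DKO libraries were below all control libraries.

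**Figure D3:**
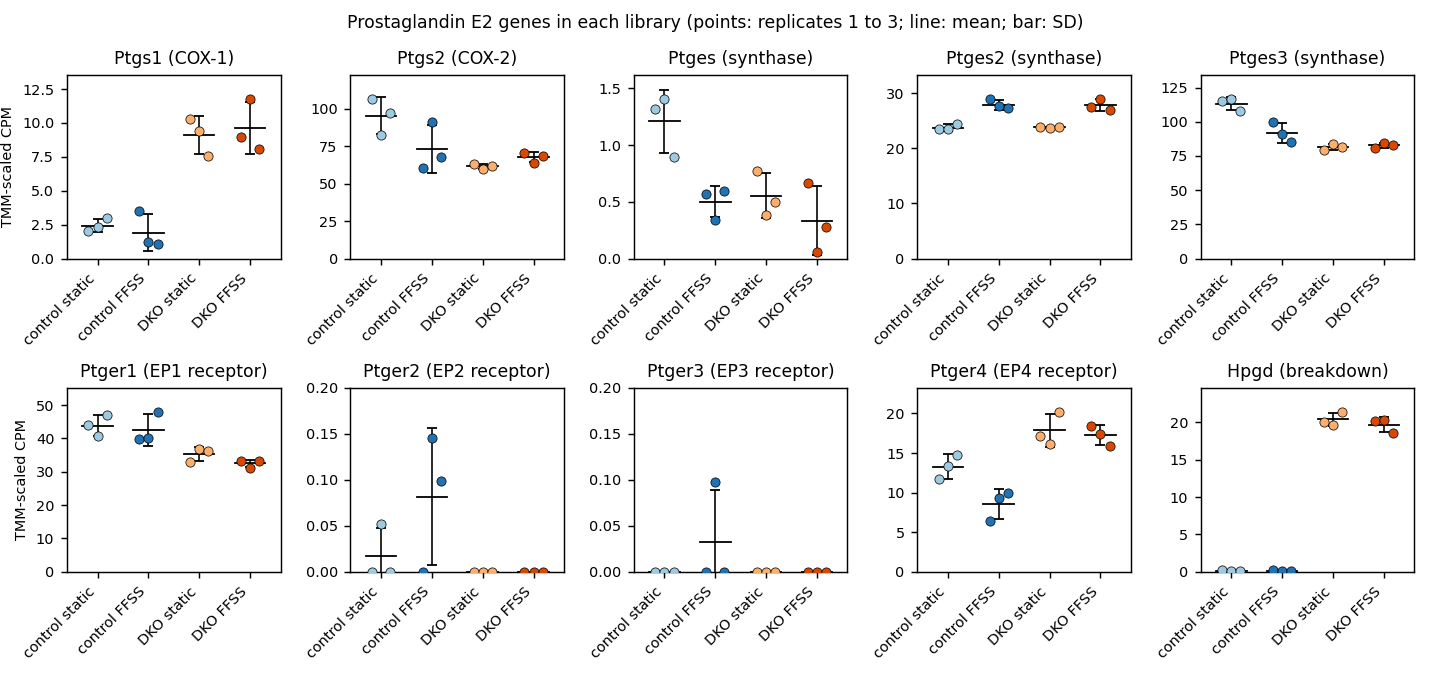
TMM-scaled CPM of the 10 genes in each library, with replicates 1 to 3 from left to right, the mean as a line and the SD as a bar (n = 3); every panel has its own scale from 0. Hpgd and Ptgs1 are high in all DKO libraries, Ptgs2 is lower in static DKO than in static control libraries, and Ptger2 and Ptger3 stay at or below 0.146 CPM.

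The 3 terminal synthases did not move as a group. Ptges encodes mPGES-1, the inducible synthase coupled to COX-2 (mm9 chr2:30744991-30785383, minus strand), and was the least expressed. Its counts were 25, 27 and 17 in static control, 11, 7 and 12 in control FFSS, 14, 7 and 9 in static DKO and 12, 1 and 5 in DKO FFSS libraries. Static control libraries were above those of every other group.

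Ptges fell by 1.26 ± 0.434 on the log2 scale with FFSS in control cells (SE, adjusted p = 0.0362), the only one of the 8 with more than a 2-fold change there. It was lower by genotype in static cells, at −1.12 ± 0.435 (adjusted p = 0.0416). Both calls rest on few counts and were lost in 6 and 8 of 21 alternatives. The FFSS call was lost without control static replicate 1 (−1.19) or 2 (−1.14) and without control FFSS replicate 2 (−1.05) or 3 (−1.41), with adjusted p over all alternatives from 0.0081 to 0.278. It was also lost with library totals alone (−1.14) and with the share of reads outside genes as a covariate (−1.10). The genotype call was lost without control static replicate 1 or 2, DKO static replicate 2 or 3 or DKO FFSS replicate 3 (between −1.12 and −0.92), with adjusted p over all alternatives from 0.00381 to 0.144. It was also lost with that covariate (−1.02), with DESeq2 and with limma-voom. FFSS in DKO cells gave −0.69 (−1.86 to 0.49) and the genotype difference under FFSS −0.55 (−1.72 to 0.63), both with wide intervals. Without DKO FFSS replicate 1 these were −1.64 and −1.50 (adjusted p = 0.37 and 0.0572), and without DKO FFSS replicate 2, which had 1 count, −0.22 and −0.08 (adjusted p = 0.95 and 0.91). Of the 50-base windows of Ptges exons, 11.6% also occur elsewhere in mm9, so its counts are uncertain.

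Ptges2 encodes mPGES-2 (mm9 chr2:32251416-32258259, plus strand) and was the 1 member higher with FFSS. It went from 23.4, 23.4 and 24.4 CPM in static control to 28.9, 27.6 and 27.2 CPM in control FFSS libraries, without overlap. The log2 fold change was 0.23 ± 0.064 (SE, adjusted p = 0.0129), a 1.18-fold rise. In DKO cells the libraries were at 23.8, 23.6 and 23.9 CPM static and 27.5, 29.0 and 26.9 CPM with FFSS, again without overlap.

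The FFSS difference of Ptges2 in DKO cells was 0.22 ± 0.065 (adjusted p = 0.128, unadjusted p = 0.0038), and without control FFSS replicate 1 its adjusted p was 0.0271. The interaction was −0.01, with an interval of −0.20 to 0.19. Between the genotypes Ptges2 differed by 0.00 in static cells (−0.14 to 0.14) and −0.01 with FFSS (−0.15 to 0.13), which with library totals alone was −0.20 (adjusted p = 0.0131), in a fit where the median of all genes was −0.25.

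Ptges3 encodes the cytosolic synthase, also known as the Hsp90 co-chaperone p23 (mm9 chr10:127496010-127514328, plus strand). It was at 115, 117 and 108 CPM in static control and 99.8, 90.9 and 85.0 CPM in control FFSS libraries. All FFSS libraries were lower, and the log2 fold change was −0.30 ± 0.062 (SE, adjusted p = 0.00256), which with the share of reads outside genes as a covariate was −0.15 (adjusted p = 0.223). DKO libraries stayed between 79.6 and 84.3 CPM in both conditions, with an FFSS difference of 0.02 (−0.11 to 0.16).

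In static cells Ptges3 was lower in DKO cells by −0.47 ± 0.062 on the log2 scale (adjusted p = 1.75e-05). With FFSS the difference was −0.15 (adjusted p = 0.0522), −0.20 (adjusted p = 0.0113) without control FFSS replicate 3 and −0.09 (adjusted p = 0.162) without control FFSS replicate 1. It passed at −0.16 with the covariate (adjusted p = 0.00749) and at −0.34 with library totals alone (adjusted p = 0.000101). The interaction of 0.32 had an adjusted p of 0.0591, and without control FFSS replicate 1 it was 0.39 (adjusted p = 0.000124). Reads that align to several places were not counted, and 52.9% of the 50-base windows of Ptges3 also occur on other stretches of mm9, so its level is uncertain. The pseudogene Gm9769 on chromosome 6 holds 18.8% of those windows and averaged 39.5 counts, beside 1733 for Ptges3.

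Of the receptors, only Ptger1 and Ptger4 were measured above the floor. Ptger1 encodes EP1, which signals through calcium (mm9 chr8:86190732-86196652, plus strand). It was at 43.9, 40.7 and 46.9 CPM in static control and 39.7, 40.0 and 48.0 CPM in control FFSS libraries, which overlapped (log2 fold change −0.04, −0.22 to 0.14). DKO libraries were lower, at 32.8, 36.9 and 36.3 CPM static and 33.2, 31.2 and 33.2 CPM with FFSS.

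The genotype difference of Ptger1 was −0.31 ± 0.086 in static cells (SE, adjusted p = 0.00675) and −0.39 ± 0.086 with FFSS (adjusted p = 0.00147). Both kept their call in all 21 alternatives. The counting did not use strand, so the Ptger1 counts can include reads from the opposite strand and are uncertain.

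Ptger4 encodes EP4, which raises cyclic AMP (mm9 chr15:5156661-5194187, minus strand). It was at 11.7, 13.3 and 14.8 CPM in static control and 6.42, 9.37 and 9.90 CPM in control FFSS libraries, with every FFSS library below the static ones. The log2 fold change was −0.63 ± 0.15 (SE, adjusted p = 0.00637), a 1.54-fold fall. Without FFSS replicate 1, the lowest of them, it was −0.46 (adjusted p = 0.00148), and with the share of reads outside genes as a covariate −1.10 (adjusted p = 0.000527), the only one of the 8 past the 2-fold rule for FFSS in control cells in that fit. In DKO cells the FFSS difference was −0.05 (−0.36 to 0.26), and the libraries spanned 15.9 to 20.2 CPM over both conditions.

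Ptger4 was higher in DKO cells, by 0.43 ± 0.144 on the log2 scale in static cells (adjusted p = 0.0207) and 1.01 ± 0.149 with FFSS (adjusted p = 5.12e-05). The latter, a 2.01-fold difference, was 0.84 (adjusted p = 2.38e-07) without control FFSS replicate 1, and there, without DKO FFSS replicate 1, with library totals alone and with another filter it no longer met the 2-fold rule. The static call was lost in 5 of 21 alternatives: with library totals alone (0.35), with the share of reads outside genes as a covariate (0.15), and without control static replicate 1 (0.35), control static replicate 2 (0.43) or DKO static replicate 3 (0.33). The interaction was 0.58 (0.13 to 1.02, adjusted p = 0.123), and without control FFSS replicate 1 it was 0.41 (adjusted p = 0.0326), and with the covariate 0.90 (adjusted p = 0.00459). Ptger4 shares 82 exon bases with Ttc33 and 1015 with the pseudogene Gm15937, both on the other strand, and Gm15937 averaged 0.08 counts. Ttc33 differed in the directions of Ptger4: −0.25 for FFSS in control cells (adjusted p = 0.0415, edgeR), and between genotypes 0.49 static (adjusted p = 0.000288) and 0.65 with FFSS (adjusted p = 2.59e-05). The part of Ttc33 reads in the Ptger4 counts was not tested.

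Ptger2 and Ptger3, which encode EP2 and EP3 (mm9 chr14:45607870-45623495 and chr3:157229856-157307722), had 8 counts in all. Ptger2 had 0, 1 and 0 counts in static control, 0, 3 and 2 in control FFSS and 0 in all 6 DKO libraries. Ptger3 had 2 counts in control FFSS replicate 2 and 0 in the other 11 libraries. A count of 0 allows up to 3 counts per library, which is 0.157 to 0.171 CPM by library totals. On the TMM-scaled sizes of the DKO libraries (16.8 to 18.2 M) this limit is higher. These receptors were therefore not detectable at this depth in DKO cells. The relative level of the measured pair also differed: the per-length Ptger4 to Ptger1 ratio was 0.226 ± 0.0241 in static control, 0.15 ± 0.0273 in control FFSS, 0.378 ± 0.0452 in static DKO and 0.396 ± 0.034 in DKO FFSS cells (SD, n = 3).

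**Figure D4:**
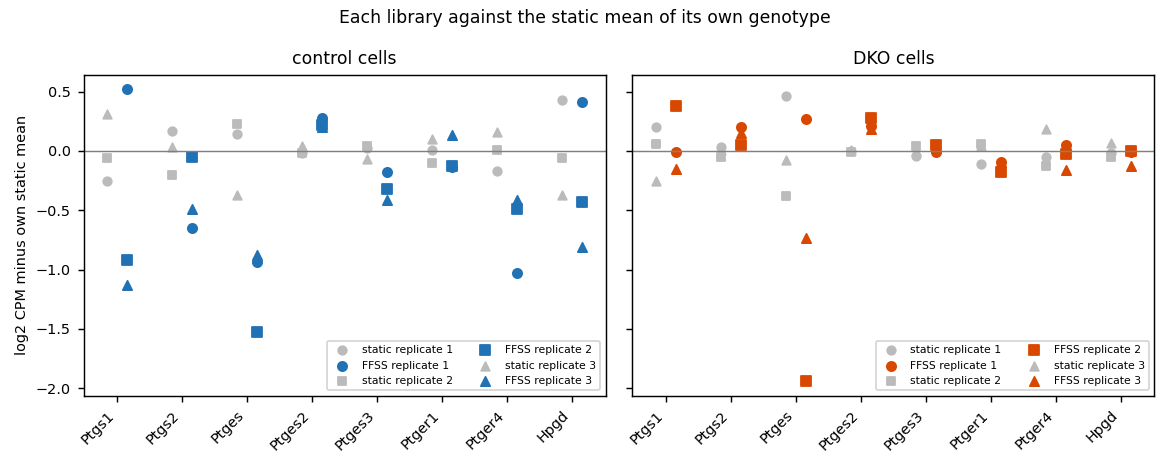
Log2 CPM (prior count 2) of each library minus the static mean of its own genotype, for control (left) and DKO cells (right); symbols mark replicate numbers, grey points are static and coloured points FFSS libraries. In control cells FFSS replicate 1 lies at 0.52 for Ptgs1 while replicates 2 and 3 lie at −0.92 and −1.13, and in DKO cells Ptges2 lies at 0.21, 0.28 and 0.18 and Ptges spreads from −1.94 to 0.27.

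Read by library, 4 of the 8 genes had FFSS and static libraries that did not overlap in control cells (Ptges, Ptges2, Ptges3 and Ptger4), where 41.3% of all genes tested did so. In DKO cells 2 of 8 did (Ptgs2 and Ptges2; background 29.9%). Between the genotypes it was 7 of 8 in static cells (background 69.0%) and 5 of 8 with FFSS (background 58.4%). Leaving out control FFSS replicate 1 left 5 of 8 past the threshold for FFSS in control cells, with Ptgs1 in place of Ptgs2, while the share of all genes rose to 55.0%. The interaction then passed for 3 of 8 (Ptgs1, Ptges3 and Ptger4), beside 37.6% of all genes tested in that fit.

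Reads outside annotated genes made up 5.25 to 5.36% of static control, 6.05 to 10.3% of control FFSS, 7.27 to 7.35% of static DKO and 8.16 to 8.80% of DKO FFSS libraries. This share was higher with FFSS and in static DKO than in static control libraries, moved with the comparisons above, and its part in them was not tested. With it as a covariate 2 of 8 genes passed for FFSS in control cells (Ptges2 at 0.31, adjusted p = 0.0415, and Ptger4) and 2 for FFSS in DKO cells (Ptgs1, and Ptges2 at 0.25, adjusted p = 0.0265), beside 15.3 and 9.96% of all genes tested in that fit. Hpgd, Ptgs1, Ptgs2, Ptges3 and Ptger1 kept their call in static cells between the genotypes in all 21 alternatives.

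A list of 41 further genes of prostanoid metabolism was matched in full, and 33 were tested. FFSS in control cells raised 4 and lowered 7 of the 33, the interaction passed for 1, and FFSS in DKO cells changed 0 (adjusted p, edgeR), where 35.8, 3.97 and 0.872% of all genes tested passed. DKO and static control cells differed in 21 (10 higher, 11 lower), and in 22 with FFSS (11 higher, 11 lower), beside 54.2 and 56.6% of all genes. Without control FFSS replicate 1, an alternative chosen after the data were seen, FFSS in control cells changed 6 up and 12 down, FFSS in DKO cells 1 up and 2 down, and the interaction passed for 17, beside 55.0, 10.5 and 37.6% of all genes tested in that fit. The medians of the 33 were −0.08, 0.01 and −0.19 for FFSS in control cells and the genotype difference static and with FFSS.

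Among genes that free arachidonic acid, Pla2g4a, the cytosolic phospholipase A2 that supplies the cyclooxygenases, averaged 141 ± 4.12 CPM in static control and 79.2 ± 9.43 CPM in control FFSS cells, and 150 ± 4.62 and 122 ± 2.8 CPM in DKO cells (SD, n = 3). It fell by 0.83 on the log2 scale in control cells (adjusted p = 5.87e-06), the DKO difference was −0.30 (adjusted p = 0.0666), and the interaction was 0.53 (adjusted p = 0.0125). It was named after its values were seen, since its change was under 2-fold.

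Mgll, which releases arachidonate from a monoglyceride, fell by 1.01 with FFSS in control cells (adjusted p = 0.0157). Pla2g6, a calcium-independent phospholipase, was 2.11-fold higher in static DKO cells (26.3 beside 12.4 CPM). Lower in static DKO cells by more than 2-fold were Pla2g2e, Pla2g4f and Faah (−1.02). Pla2g2e had 9 summed counts in static DKO beside 60 in static control cells, a ratio of CPM of 0.157 (95% exact interval 0.0687 to 0.319). Pla2g4f had 3 beside 24, with its DKO mean under the floor (0.131, 0.0253 to 0.432). With FFSS the genotype differences were −0.94 for Faah (adjusted p = 0.000669) and −0.64 for Pla2g4f (adjusted p = 0.27), and Pla2g2e had 5 counts beside 92 (0.0619, 0.0196 to 0.15). Pla2g4f had 3 and 14 summed counts in static and FFSS DKO cells (adjusted p = 0.194).

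Of the genes that move PGE2 across the membrane, Slco2a1, the prostaglandin transporter that takes PGE2 up for breakdown, was at 1.08 ± 0.205 CPM in static control and 2.27 ± 0.89 CPM in control FFSS cells (log2 fold change 1.06, adjusted p = 0.0113). The static and FFSS libraries overlapped. In DKO cells it was lower, by −1.17 static (adjusted p = 0.0142) and −1.94 with FFSS (adjusted p = 0.000132). Hpgd, which acts after this uptake, was higher in DKO cells. Panx1, a membrane channel gene, was lower by −1.14 in static DKO cells. The carbonyl reductase gene Cbr2 was lower by −1.09.

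Of the 4 synthases of other prostanoids tested, 3 were higher and 1 lower in DKO cells in both conditions, beside 27.0 and 27.2% of all genes in static cells and 27.0 and 29.6% with FFSS. Ptgis, prostacyclin synthase, rose from 8.36 ± 1.51 to 170 ± 5.22 CPM between static control and DKO cells (log2 fold change 4.35, adjusted p = 4.62e-06). With FFSS it differed by 5.43, at 3.71 ± 3.12 CPM in control and 159 ± 8.42 CPM in DKO cells. The control FFSS libraries spread widely there, so the size of that difference is uncertain. Tbxas1, thromboxane synthase, was higher by 3.37 and 3.88, at 3.69 CPM in static and 2.79 CPM in FFSS DKO cells. Its control means were near the floor, at 0.35 ± 0.184 CPM static and 0.183 ± 0.0304 CPM with FFSS, so these fold changes are uncertain. Ptgds, a prostaglandin D synthase, was lower in DKO cells, where its mean was under the floor in both conditions. Its summed counts were 2 beside 32 in static cells, a ratio of CPM of 0.0656 (95% exact interval 0.00762 to 0.257), and 4 beside 21 with FFSS (0.217, 0.0542 to 0.643), intervals that cover counting error only.

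Of the receptors of other prostanoids, 4 were tested. Ptgfr, the prostaglandin F receptor gene, was the most abundant of them, at 20.3 and 18.2 CPM in static and FFSS control cells and 14.0 and 12.5 CPM in DKO cells. It was lower in DKO cells, by −0.54 on the log2 scale in both conditions (adjusted p = 0.0213 static and 0.0206 with FFSS), and was named after its values were seen, since its change was under 2-fold. With FFSS the Ptgfr libraries of the genotypes overlapped. The other 3 were at or below 1.52 CPM on average. Ptgir, the prostacyclin receptor, rose from 0.596 ± 0.0827 to 1.52 ± 0.208 CPM with FFSS in control cells (log2 fold change 1.34, adjusted p = 0.0011). Gpr44, a prostaglandin D2 receptor, was higher by 1.17 with FFSS in control cells and by 1.14 in static DKO cells, at no more than 0.6 CPM on average. With FFSS its genotype difference was −0.65 (adjusted p = 0.174). Tbxa2r, the thromboxane receptor, was lower in DKO cells with FFSS by −1.62 (edgeR, adjusted p = 0.0119), at low levels of 0.233 ± 0.218 CPM beside 0.716 ± 0.115 CPM in control cells. In static cells its genotype difference was −0.91 (adjusted p = 0.141).

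**Figure D5:**
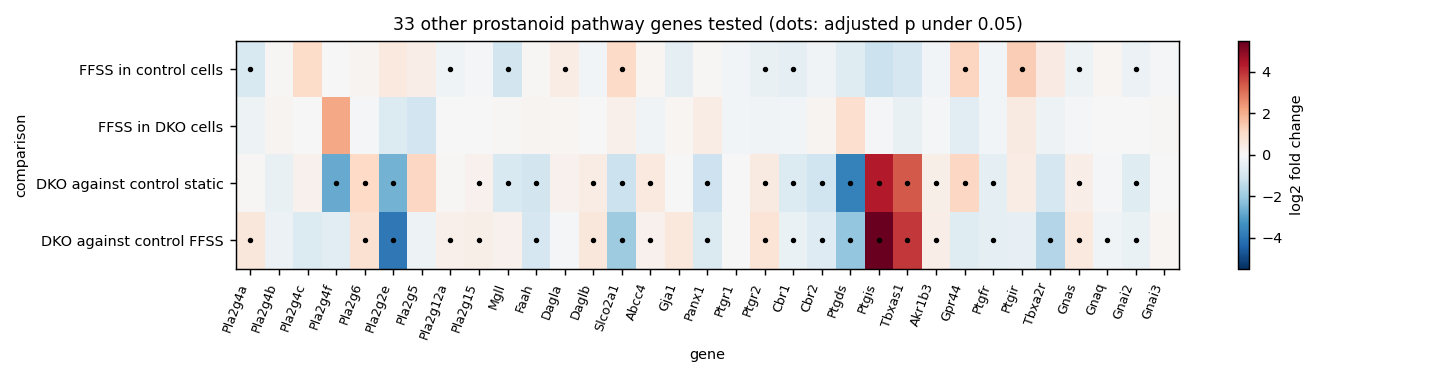
Log2 fold changes of the 33 other prostanoid pathway genes tested, as colours from blue (lower) to red (higher), in 4 comparisons; dots mark an adjusted p under 0.05 (edgeR). Ptgis and Tbxas1 are the strongest red cells in both rows that compare genotypes (4.35 and 3.37 static), and the row of FFSS in DKO cells has no dot.

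The genes whose pattern over the 12 libraries lay nearest to that of each member were sought among 11400 genes, by the mean absolute difference of log2 CPM after centring. For Ptgs2 they were Nup54 (0.096), Herpud1 (0.107), Pvr (0.109), Trpv2 (0.116) and Mtmr10 (0.118), where the own mean deviation of Ptgs2 was 0.243. Herpud1 averaged 313, 257, 211 and 221 CPM in static control, control FFSS, static DKO and DKO FFSS cells. For Hpgd the nearest was Mepe, an osteocyte matrix gene, at 0.346, with 0.123 CPM in static control and 17.3 CPM in static DKO cells. For the others they were Sgk3 for Ptgs1 (0.159), Tbc1d8 for Ptges (0.309), Mki67ip for Ptges2 (0.035), Gm14414 for Ptges3 (0.036), Med1 for Ptger1 (0.055) and Mmp17 for Ptger4 (0.113). The libraries are shared by all of these genes, and nearness is a description only.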

How the data were processed

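RNA-seq was performed on 12 libraries of total RNA, 4 groups of 3. The authors aligned reads with STAR to mm9 and deposited raw counts per Ensembl gene from HTSeq, not normalised. Per the file names, strand was not used. Tool and build names are from the submitters' processing notes. Reads that align to several places or fall in overlapping genes are left out of such counts. The 5 HTSeq summary lines, between 22.5 and 25.9% of all reads listed, were kept out of totals and tests. Samples were grouped by their titles. Symbols and positions came from GENCODE vM1 on mm9, in which 37168 of 37583 IDs (98.9%) matched.

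The 4 groups were compared in edgeR 4.0.16 (R 4.3.3), with 1 robust quasi-likelihood model over the 12 libraries, TMM scaling and Benjamini-Hochberg adjustment over the 14904 of 24360 genes kept by the filter on zeros. Genes were called at an adjusted p under 0.05. The counts that also required more than a 2-fold change follow the rule of the study, which asked for both. Intervals are at 95%. Log2 CPM used a prior count of 2. The edgeR code was run on simulated counts with known fold changes, a shared profile and a fixed spread. This checked the code only, since the simulated counts held neither a library that stood apart nor genotype differences. The intervals of fold changes come from the edgeR fits and include the spread between libraries. The exact intervals of ratios of summed counts and the floor of 3 counts cover counting error only, since PCR reads without molecular identifiers are not independent molecules.

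The members and lists were chosen with earlier results of these data known, although the list of members uses no measured value. All 10 members are named, and other pathway genes where the adjusted p and the 2-fold rule were met in any of 5 comparisons. The 5 genes most like Ptgs2 and the 1 most like each other member needed an average log2 CPM above 1. Same-numbered libraries of different groups did not deviate together (mean correlation across genes 0.00226 in 18 pairs, −0.00116 in 36 other pairs), so no block was used. Alternatives were RLE factors, library totals alone, other filters, 6 libraries per fit, a replicate block, the share of reads outside genes as a covariate, each library left out, DESeq2 1.42.0, limma-voom (limma 3.58.1) and another gene length.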

Additional observations from a re-analysis of the deposited data

Results flagged for a closer look

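Reads outside annotated genes were not part of the comparisons, and their share was above that of the static libraries in both genotypes with FFSS. It averaged 8.61% in control FFSS libraries, where the static control libraries lay between 5.25 and 5.36%. In DKO FFSS libraries it averaged 8.43%, where static DKO libraries lay between 7.27 and 7.35%. Control FFSS replicate 1 was at 6.05%, the lowest of the FFSS libraries. These are values only, and their part in the prostaglandin genes was not tested.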

How the results depend on the processing

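Of 832 log2 fold changes of the 8 genes over 21 alternatives, 741 kept their direction and their side of the threshold, 37 lost and 16 gained a call, and 38 reversed in sign, none of them a called value. The number of genes called for FFSS in control cells was 3 with library totals alone and with every gene that had a count, 2 with 6 libraries and with the covariate (38.7, 19.4, 16.5 and 15.3% of all genes in those fits), and 3 to 5 on leaving out 1 library (24.2 to 55.0%); with the 2-fold rule it was 0 with library totals alone (6.80% of all genes) and 0 to 2 (3.30 to 11.3%). For FFSS in DKO cells it was 1 with 6 libraries, 2 with the covariate and 0 to 1 on leaving out a library (11.9, 9.96 and 0.0866 to 10.5% of all genes). The interaction passed for 1 gene with the covariate and with DESeq2 and for 0 to 3 on leaving out a library (5.85, 9.59 and 1.20 to 37.6% of all genes), with the 2-fold rule 0 to 1 (0.28 to 7.60%). Control static replicate 1 or control FFSS replicate 3 gave the count of 3, and control FFSS replicate 1 the interaction count of 3. For FFSS in control cells the call of Ptges2 was lost with every gene and with 6 libraries, that of Ptger4 with 6 libraries and that of Ptges3 with the covariate. With library totals alone Ptges2 gained a call between genotypes under FFSS, at −0.203 (adjusted p = 0.0131). The cause of these shifts was not tested.

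Signs reversed as follows. With the covariate Ptgs1 was 0.842 for FFSS in control cells (adjusted p = 0.0711) and −0.296 in the interaction, Hpgd 0.552 and 0.299 for FFSS in control and DKO cells and −0.252 in the interaction, and Ptger1 0.029 in the interaction. With library totals alone Ptger1 was 0.086 for FFSS in control cells and Ptges2 −0.081 between static genotypes. Ptges2 was 0.005 in the interaction with RLE factors and DESeq2 and 0.001 with every gene, and 0.006 between genotypes under FFSS with RLE factors, every gene and DESeq2, and 0.008 with 6 libraries.

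On leaving out each library, FFSS in control cells ranged from −0.136 to 0.008 for Ptger1 and from −1.177 to 0.026 for Hpgd, and FFSS in DKO cells from −0.091 to 0.187 for Ptgs1 and from −0.116 to 0.048 for Ptger4. The interaction ranged from −0.374 to 1.045 for Ptges, −0.039 to 0.017 for Ptges2, −0.127 to 0.017 for Ptger1 and −0.078 to 1.127 for Hpgd. Between static genotypes Ptges2 ranged from −0.011 to 0.021, and under FFSS Ptgs2 from −0.235 to 0.076 and Ptges2 from −0.037 to 0.018.

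With the replicate block 4 genes were called for FFSS in control cells, Ptgs2 being lost at −0.383 (adjusted p = 0.0644), beside 34.5% of all genes in that fit, and no other call of the 8 genes changed. Depth limits Ptges, Ptger2, Ptger3 and Hpgd in control cells.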
